A study of Mus musculus with 3 samples.

Results

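Integrins and cadherins are the receptors by which cells hold on to the surrounding matrix and to each other, and their transcripts were examined in sorted cells of the mouse leptomeninges. The genes were taken by symbol: every integrin alpha subunit (Itga1 to Itga11, Itga2b, Itgad, Itgae, Itgal, Itgam, Itgav and Itgax), every integrin beta subunit (Itgb1 to Itgb8) and every gene named Cdh followed by a number. This gave 50 rows of the 46983 genes in the count table, namely 19 alpha rows, 8 beta rows and 23 cadherin rows, with 49 different symbols because Itgam stood on 2 gene identifiers. The leptomeninges, the pia and arachnoid membranes around the brain, had been dissected from vehicle-treated mice, dissociated and sorted by flow cytometry, and the labels call the sorted material a pia-enriched fraction. The 3 libraries formed 1 group, so the comparisons are between genes and between libraries. The labels used here give no strain, age, sex, vehicle or sort gate, and do not say whether the libraries came from separate animals. Any p-value therefore refers to these libraries only.

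An integrin is a pair of an alpha and a beta chain, and both chains are needed at the cell surface. The alpha chain largely sets the ligand: some bind collagens, some laminins, and others the arginine-glycine-aspartate (RGD) motif of fibronectin, vitronectin and similar proteins. Talin and kindlin switch integrins on from inside the cell and connect them to actin. Classical cadherins bind cadherins of neighbouring cells through their outer domains and are tied to actin by catenins. They are divided into type I, such as the epithelial Cdh1 and neural Cdh2, and type II, such as Cdh11, which is typical of mesenchymal cells. In leptomeninges the fibroblasts rest on a laminin-containing basement membrane at the brain surface and lay down collagen, while arachnoid barrier cells carry Cdh1.

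Libraries 1, 2 and 3 held 21002860, 28704952 and 25338616 gene counts. Levels are given as CPM, counts scaled to library size, and where genes are compared with each other they are divided by the kilobases of annotated exon. A count of 0 allows up to 3 counts, or 0.152, 0.101 and 0.116 CPM, an allowance that covers counting error only. Fibroblast markers were abundant in every library, with a summed level of the 6 listed genes between 23534 and 29183 CPM. All 8 leptomeningeal markers passed the count filter, but passing does not single out a cell type. All 8 endothelial, 8 mural, 6 choroid plexus, 4 astrocyte and 4 neuron markers passed it too. Library 1 stood apart: mitochondrial genes took 0.918% of its counts against 3.60% and 3.46% in the others, it held few macrophage transcripts, and its difference from the others moved with the base composition of the transcripts, as given for the members below.

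Of the 50 rows, 31 passed the filter on low counts, which asks for the equivalent of 10 counts in every library, against 30.7% of all genes in the table. They were 14 alpha rows, 7 beta rows and 10 cadherins. A further 18 rows had some counts without passing, and Cdh22 had 0 counts in all libraries. At least 1 CPM per kilobase on average was reached by 10 alpha, 5 beta and 5 cadherin genes. At least 10 was reached by only 5 genes: Itgb1, Cdh11, Itga11, Itgb5 and Itga7. A level of 1 is low: of all genes past the filter, 17.1% were at or below Itga9 (0.79) and 27.3% at or below Itga6 (1.38). At or below Itga7 (10.2) were 72.5%.

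The 3 most abundant integrin genes were Itgb1, Itga11 and Itgb5, the shared beta chain, a collagen-binding alpha chain and a partner of Itgav. The 250 bases before their RefSeq start sites (GRCm38.p6) are shown with that of Itgax, a leukocyte chain with 0, 3 and 11 counts, because they contrast in CG dinucleotides, which are written in capitals.
Itgb1, chr8:128685404-128685653, plus strand: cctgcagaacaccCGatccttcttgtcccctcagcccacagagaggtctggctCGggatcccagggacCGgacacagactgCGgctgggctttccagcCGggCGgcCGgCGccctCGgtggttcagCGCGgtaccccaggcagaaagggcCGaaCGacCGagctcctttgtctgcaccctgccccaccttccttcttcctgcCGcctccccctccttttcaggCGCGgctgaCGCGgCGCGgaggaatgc
Itgb5, chr16:33829415-33829664, plus strand: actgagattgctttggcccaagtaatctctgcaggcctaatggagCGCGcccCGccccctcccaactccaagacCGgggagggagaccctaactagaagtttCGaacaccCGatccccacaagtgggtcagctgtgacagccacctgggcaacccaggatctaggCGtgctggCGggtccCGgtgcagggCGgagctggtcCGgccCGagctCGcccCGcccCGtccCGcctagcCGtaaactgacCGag
Itga11, chr9:62677605-62677854, plus strand: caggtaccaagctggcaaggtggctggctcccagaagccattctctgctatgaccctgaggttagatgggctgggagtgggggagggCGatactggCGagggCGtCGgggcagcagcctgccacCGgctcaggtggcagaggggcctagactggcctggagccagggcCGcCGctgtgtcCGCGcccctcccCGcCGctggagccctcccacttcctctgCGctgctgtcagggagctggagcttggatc
Itgax, chr7:128129300-128129549, plus strand: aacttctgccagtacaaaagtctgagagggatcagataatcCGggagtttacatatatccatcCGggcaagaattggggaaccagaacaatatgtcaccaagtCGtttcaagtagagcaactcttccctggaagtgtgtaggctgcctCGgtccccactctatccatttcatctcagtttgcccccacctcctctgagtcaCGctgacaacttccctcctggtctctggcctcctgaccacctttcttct
The windows held 21, 18, 12 and 5 CG dinucleotides for Itgb1, Itgb5, Itga11 and Itgax. Promoters were matched for 31 of the 49 symbols; those of Cdh1, Cdh2, Cdh3, Cdh4, Cdh5, Cdh11, Cdh13, Cdh16, Cdh17, Cdh19, Itga6, Itga7, Itgad, Itgae, Itgal, Itgb2, Itgb3 and Itgb4 are not shown. A window with at least 50% G and C and a CG count of at least 0.6 times that given by its base composition was found for 5 of the 18 matched members past the filter, 5 of the 13 others, and 31.02% of 32851 promoters of the same length. Cdh22, Cdh8 and Cdh7, at or near 0 counts, held such windows, and Itga11, with a ratio of 0.414, did not. The matched windows of Cdh12, Cdh18 and Itga9 lay far inside the annotated gene. That of Cdh12 began at 21111202, against a gene start of 20449265. The letters TATAAA, searched on both strands, were in 0 of 31 member windows and in 12.4% of all promoters.

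Among beta chains, Itgb1 (ENSMUSG00000025809.15; chromosome 8, 128685654 to 128733200, GRCm38) was at 185, 347 and 339 CPM in libraries 1, 2 and 3. Itgb5 (ENSMUSG00000022817.14; chromosome 16, 33829665 to 33949338), which pairs with Itgav to bind vitronectin, was at 161, 92.8 and 95.7 CPM. Library 1 was therefore the lowest for Itgb1 and the highest for Itgb5. Per kilobase the Itgb1 levels were 45.4, 85.0 and 83.0 and those of Itgb5 45.3, 26.1 and 26.9, so that the genes were level in library 1 and Itgb1 was the higher in each of the others. Itgb1 made up 62.5% ± 13.2 (SD, n = 3) of the summed beta level per kilobase and Itgb5 30.5% ± 14.5. Neither gene was called variable between libraries (edgeR goodness of fit, adjusted p = 0.9997 for both). This test asks whether a gene spreads more than the trend for genes of similar abundance, estimated from the same libraries. A high p-value therefore does not show an even level. The highest library was 1.87 times the lowest for Itgb1 and 1.73 times for Itgb5.

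The other beta chains averaged below 3 CPM per kilobase. Itgb4, the laminin-receptor chain that pairs only with Itga6, was at 16.4, 14.6 and 31.1 CPM, and Itgb8, a partner of Itgav in the activation of latent TGF-beta, at 16.1, 28.3 and 49.2 CPM. Their mean levels per kilobase, 2.95 ± 1.29 and 2.82 ± 1.52, could not be ordered. Itgb8 depended on the length used: per kilobase of coding sequence it was at 13.6 against 3.79 for Itgb4, since its annotated exons span 11060 bases and its coding sequence 2301. The remaining chains were Itgb2 of leukocytes (1.42 ± 1.03 CPM per kilobase), Itgb3 of platelets and other cells (0.523 ± 0.201), the lymphocyte chain Itgb7 (0.218 ± 0.0457) and the epithelial Itgb6 (0.121 ± 0.0784), which did not pass the filter.

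Among the alpha chains that bind collagen, Itga11 (ENSMUSG00000032243.8; chromosome 9, 62677826 to 62783982), the fibroblast receptor for fibrillar collagen, stood far above the rest. It was at 229, 246 and 228 CPM, the smallest spread of any member past the filter, with the highest library 1.08 times the lowest. Its level per kilobase, 45.6 ± 1.93, exceeded that of the next alpha gene in 3 of 3 libraries with no overlap of the SDs. It made up 58.1%, 57.8% and 46.8% of the summed alpha level, a mean of 54.2% ± 6.42 (SD, n = 3). Per kilobase of coding sequence the share was 42.4%, still the largest of any alpha gene.

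The other collagen-binding chains were low. Itga10, at 14.3, 9.91 and 12.6 CPM (2.37 ± 0.431 CPM per kilobase), shares 33.5% of its exon bases with another annotated gene, so some of its reads may have been set aside as ambiguous. Itga1, known from smooth muscle and capillaries, was at 21.4, 43.0 and 52.4 CPM, lowest in library 1. It ranked ninth of the alpha rows per kilobase of exon (2.09 ± 0.854) but sixth by coding length, at 11.0, because its exons span 18599 bases. Itga2 was at 0.699 ± 0.14 CPM per kilobase. Together the 4 collagen-binding chains took 60.3% ± 6.33 of the alpha level.

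Laminin-binding alpha chains took 16.5% ± 4.57 of the alpha level. Itga7, a laminin receptor best known in muscle, was at 72.4, 51.2 and 124 CPM, highest in library 3, and ranked second of all alpha genes at 10.2 ± 4.64 CPM per kilobase. Library 3 also had the highest sum of the 8 listed mural cell markers, at 3897 CPM against 2141 and 2111 in libraries 1 and 2. It had the highest sum of 5 Schwann cell markers too, at 1959 CPM against 1336 and 1331. Single genes made up most of each sum. These were Acta2, at 1380, 1158 and 2349 CPM, for the mural markers and Pmp22, at 1172, 1158 and 1608 CPM, for the Schwann cell markers. Itga7 was lowest in library 2, as were Acta2, Cspg4, Notch3 and Des. By contrast Rgs5 (69.4, 273 and 373 CPM), Myh11 (330, 386 and 725 CPM), Kcnj8 and Abcc9 were lowest in library 1. Among the Schwann cell markers only Scn7a was lowest in library 1. None of the 13 mural and Schwann cell markers was at 0 in all libraries, and their part in the Itga7 level was not tested. In a bulk sample, fewer cells of a type and less RNA per cell cannot be told apart. Itga3 was at 17.1, 13.4 and 13.4 CPM, and Itga6 at 5.17, 11.1 and 21.3 CPM, which is lowest in library 1 and highest in library 3.

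RGD-binding alpha chains took 21.2% ± 3.23 of the alpha level, and 4 genes made it up. Itga5, the fibronectin receptor chain, was at 33.7, 27.3 and 44.9 CPM, and Itga8, which binds nephronectin, at 17.5, 45.9 and 57.5 CPM. Itgav, the shared chain of the vitronectin receptors, was at 13.9, 54.9 and 40.6 CPM. Library 1 was the lowest for Itga8 and Itgav, and Itga5 was lowest in library 2. Itga7, Itga5, Itga8 and Itgav followed each other in rank, at 10.2, 7.15, 5.47 and 3.39 CPM per kilobase, and neighbours overlapped within 1 SD, so their order was not resolved. Itga2b, the platelet chain, was at 16.5, 7.14 and 11.4 CPM, highest in library 1. The 6 platelet markers summed to 6.28, 9.97 and 25.6 CPM, lowest in library 1, with Pf4 at 2.43, 8.46 and 20.7 CPM. Of the 6, 3 (Treml1, Gp1bb and Gp6) were highest in library 1 and lowest in library 2, as Itga2b was, each at 1.06 CPM or less and not past the filter. Pf4, Ppbp and Gp9 were highest in library 3, and the part of these markers in the Itga2b level was not tested.

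**Figure D1:**
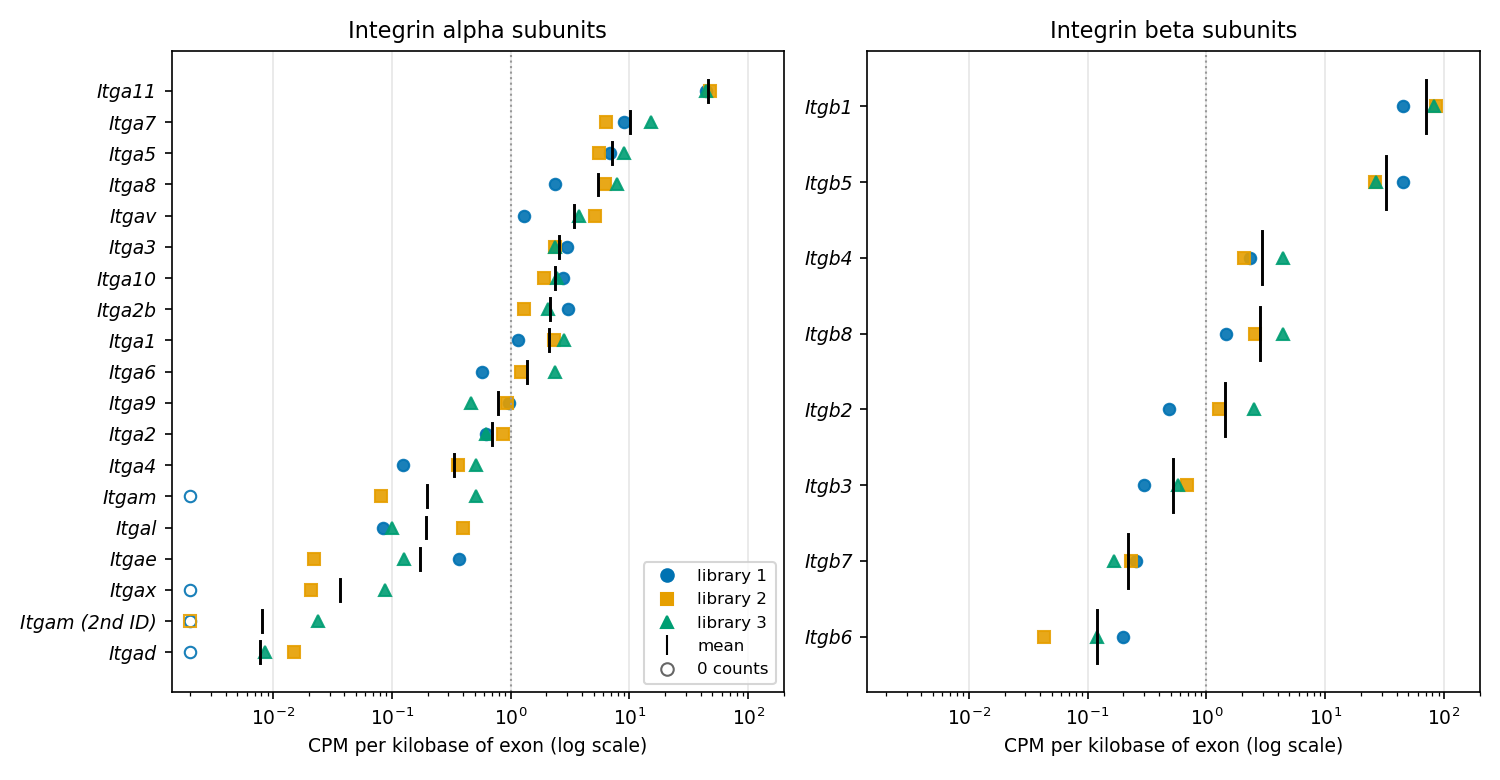
Level of each integrin gene in CPM per kilobase of exon on a log axis, alpha chains on the left and beta chains on the right, with 1 point per library, a bar at the mean, open points at the left edge for 0 counts and a dotted line at 1. Itga11 and Itgb1 lead with means of 45.6 and 71.1, and the 3 points of Itga11 lie nearly on top of each other.

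Itga4 and Itga9, whose ligands include VCAM-1, fibronectin and tenascin, were low, at 0.334 ± 0.197 and 0.79 ± 0.28 CPM per kilobase. The alpha chains of leukocyte integrins had lower means, at 0.199 CPM per kilobase or less. Itgal of lymphocytes had 11, 78 and 17 counts in libraries 1, 2 and 3, and Itgae had 33, 3 and 15. Itgam and Itgax of myeloid cells had 0, 12 and 67 and 0, 3 and 11 counts, with a further 0, 0 and 3 on the second Itgam identifier, and Itgad had 0, 2 and 1. The exons of Itgam overlap those of its second identifier over 68.7% of their length on the same strand, so its counts may be too low. Itgb2, the beta chain of these receptors, was at 1.47, 3.88 and 7.70 CPM, and Itgb7 at 0.709, 0.64 and 0.464 CPM.

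Macrophage and microglia markers moved in the same direction across libraries as Itgb2. The 7 markers summed to 7.4, 154 and 471 CPM in libraries 1, 2 and 3, a wider spread than that of Itgb2, none was at 0 in all libraries, and 5 of the 5 past the filter were called variable between libraries. B cell markers summed to 2.08, 53.9 and 62.0 CPM, neutrophil markers to 2.38, 2.66 and 4.52 CPM, and T and NK cell markers to 1.06, 1.85 and 2.67 CPM. Their part in the leukocyte integrins was not tested.

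Of 24 known alpha-beta pairs, 12 had both chains at a mean of at least 1 CPM per kilobase. Most genes past the filter exceed that level. All 12 were among the 16 pairs that bind collagen, laminin or RGD ligands: 3 of 4 collagen pairs, 4 of 4 laminin pairs and 5 of 8 RGD pairs. None of the 5 leukocyte pairs or the 3 pairs of Itga4 and Itga9 reached it. The full set of laminin pairs depended on library 3. Itga6, which pairs with Itgb1 and with Itgb4, was at 0.573 CPM per kilobase in library 1 and 2.36 in library 3. In library 2 it was above 1. Without library 3 the number of pairs was 10, and the laminin pairs of Itga6 were the ones lost. At 5 CPM per kilobase 4 pairs were left, all with Itgb1: Itga11, Itga7, Itga5 and Itga8, with the level of the lower chain at 45.6, 10.2, 7.15 and 5.47. These are RNA levels, and the chains of a pair could come from different cells.

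In 11 of these 12 pairs the alpha chain had the lower mean. The exception was Itgav with Itgb8, at 3.39 and 2.82 CPM per kilobase. Itgav stood below Itgb5 in 3 of 3 libraries, by 5.13, 2.35 and 2.83 on the log2 scale. Itgb1 was set against the sum of its 12 alpha partners, since one beta chain serves them all. The log2 ratio was -0.69, 0.07 and -0.15 in libraries 1, 2 and 3, a mean of -0.26 ± 0.39 (SD, n = 3), which an exact two-sided permutation test that flips signs did not separate from 0 (p = 0.5). The smallest p-value that 3 libraries allow is 0.25.

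**Figure D2:**
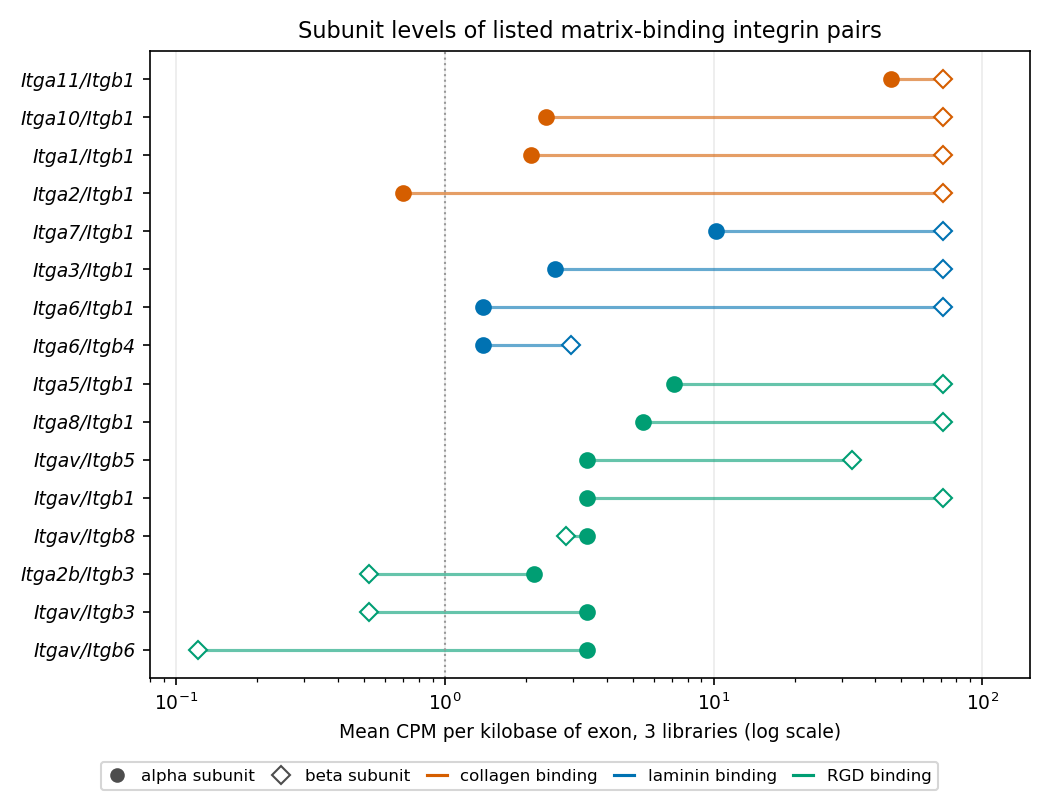
Mean level of the alpha chain (filled circles) and beta chain (open diamonds) of 16 matrix-binding integrin pairs, in CPM per kilobase of exon on a log axis, coloured by ligand. The pair Itga11 and Itgb1 is the only one with both chains above 40, whereas pairs of Itgav with Itgb3 and Itgb6 lack a beta chain at 1 or more.

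The ligands and inner partners of integrins were read from lists of 72 genes, of which 66 passed the filter and 0 were called variable between libraries (edgeR goodness of fit; 2 had an unadjusted p under 0.05, Vtn and Ibsp). Collagen genes were the most abundant ligands, with Col1a2, Col1a1 and Col6a1 at 928, 779 and 626 CPM per kilobase; Col1a1 and Col1a2 also stand in the fibroblast list. Of the laminin chains 9 of 11 passed the filter, led by Lamb2 (63.9), Lamc1 (10.2) and Lama4 (9.27). Of the RGD and related ligands 15 of 16 passed, led by vitronectin, Vtn (285), thrombospondin-1, Thbs1 (190), and nidogen-1, Nid1 (140). Vtn was at 987, 422 and 328 CPM, highest in library 1, as was Itgb5, a chain of its receptor. Itgav, the other chain of that receptor, was lowest in library 1, at 13.9, 54.9 and 40.6 CPM. The GC content of the longest transcript was 55.3% for Vtn, 57.0% for Itgb5 and 43.5% for Itgav. A link between these levels, or with GC content, was not tested.

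Of the activators and linkers 20 of 22 passed the filter. Actn4, an actin crosslinker, Tns2, a tensin, and Lims1, a partner of integrin-linked kinase, led at 48.6, 42.7 and 31.4 CPM per kilobase. The kindlins were divided: Fermt2, the kindlin of mesenchymal cells, was at 97.8, 109 and 129 CPM, Fermt3 of blood cells at 2.84, 3.88 and 8.55 CPM, and the epithelial Fermt1 had 0 counts in every library. Talin was represented by Tln1 (195 ± 26.6 CPM) far more than by Tln2 (10.2 ± 1.41 CPM). All 7 inhibitors passed the filter, led by filamin A, Flna, at 84.9 CPM per kilobase, followed by Kank1 (13.8) and Itgb1bp1 (13.4).

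Among the 23 cadherins, Cdh11 (ENSMUSG00000031673.5; chromosome 8, 102632095 to 102785642), the mesenchymal type II cadherin, was the leading gene. It was at 494, 656 and 374 CPM, highest in library 2 and lowest in library 3. It made up 71.0% ± 10.9 (SD, n = 3) of the summed cadherin level per kilobase, at 57.1 ± 15.9 CPM per kilobase, above the next cadherin in 3 of 3 libraries with no overlap of the SDs.

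Type II cadherins as a class took 93.7% ± 2.25 of the cadherin level and type I cadherins 5.71% ± 2.07. The log2 ratio of type II to type I was 4.60, 4.19 and 3.51 in libraries 1, 2 and 3, a mean of 4.10 ± 0.55, positive in 3 of 3 libraries (the same exact permutation test, p = 0.25, the smallest possible). Cdh11 did not carry this alone. With Cdh11 left out, a comparison chosen after seeing the data, the ratio was 2.14, 1.78 and 2.03. That remainder rested mainly on Cdh5 and Cdh19, at means of 6.90 and 6.73 CPM per kilobase against 4.51 for the type I sum. Every other type II gene averaged 3.16 or less, and more type II than type I genes were summed. A ratio without Cdh5 and Cdh19 was not computed, so an excess across the whole class is not shown.

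The next type II genes were Cdh5, Cdh19 and Cdh6, at means of 6.90, 6.73 and 3.16 CPM per kilobase. The order of Cdh5 and Cdh19, and that of Cdh19 and Cdh6, was not resolved. Cdh5, the cadherin of endothelial junctions, was at 32.7, 33.9 and 20.4 CPM, lowest in library 3. The 8 endothelial markers summed to 81.3, 56.5 and 91.4 CPM, highest in library 3; of the 8 markers 4 were highest in library 3, and none was lowest there, where Cdh5 was. All 8 passed the filter, and their part in the Cdh5 level was not tested. Per kilobase Cdh5, at 6.90 ± 1.77, lay above Pecam1 (2.32), the endothelial adhesion molecule. Egfl7, the highest of the 8 markers per kilobase, was at 5.37 ± 2.45 and overlapped Cdh5 within 1 SD. In library 3 Egfl7 was above Cdh5, at 5.70 against 4.86 CPM per kilobase. Cdh6, a type II cadherin of kidney and neural crest development, was at 27.5, 25.2 and 32.8 CPM, within 1.3 times between libraries.

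Cdh19, a type II cadherin known from Schwann cell precursors, was the one member called variable. It was at 3.55, 23.96 and 58.9 CPM in libraries 1, 2 and 3, from 70, 711 and 1523 counts. The highest library was 16.6 times the lowest (edgeR goodness of fit, Benjamini-Hochberg adjusted p = 0.00158). Library 1 lay far below the others and library 3 was the highest. Of 5 Schwann cell markers, 1 (Scn7a) was lowest in library 1 as Cdh19 was, 4 were lowest in library 2, and all 5 were highest in library 3. Scn7a was at 18.6, 62.1 and 111 CPM. Pmp22 was at 1172, 1158 and 1608 CPM, Prx at 128, 97.3 and 210 CPM, Sox10 at 17.9, 13.7 and 28.8 CPM and Foxd3 at 0.355, 0.135 and 1.28 CPM. None of the 5 was at 0 in all libraries, and their part in the Cdh19 level was not tested. The GC content of the longest transcript was 37.4% for Cdh19 and 40.2% for Scn7a. It was 48.6% for Pmp22, 57.7% for Prx, 61.8% for Sox10 and 65.1% for Foxd3. The part of GC content in the order of libraries for these markers was not tested. The levels of Cdh19 with the GC trend removed are given below.

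**Figure D3:**
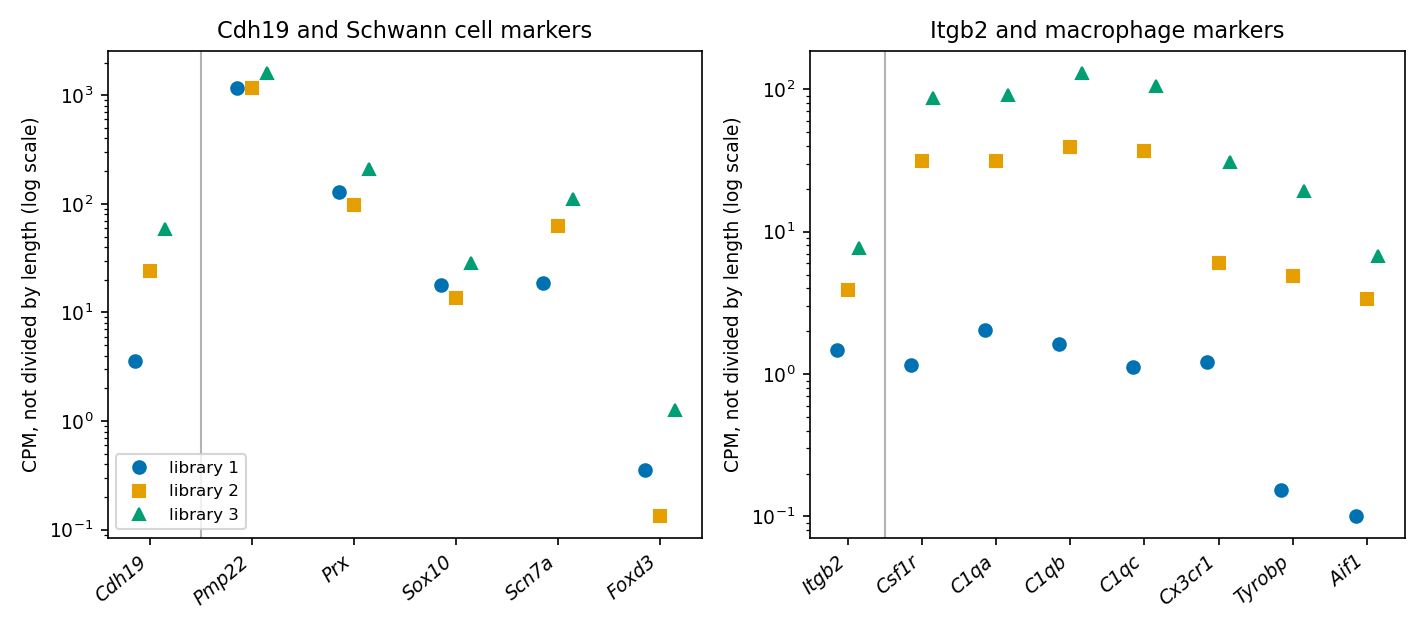
CPM, not divided by length, on a log axis in each library for Cdh19 beside 5 Schwann cell markers (left) and for Itgb2 beside the 7 macrophage markers (right). Cdh19 spans 3.55 to 58.9 CPM while Sox10 spans 13.7 to 28.8, and Itgb2 spans 1.47 to 7.70 CPM while C1qb spans 1.62 to 130.

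Of the type I cadherins, 3 of 5 passed the filter. Cdh1, E-cadherin, was at 8.26, 15.7 and 17.4 CPM, lowest in library 1, and 3.01 ± 1.06 CPM per kilobase. The 6 arachnoid barrier markers summed to 305, 414 and 505 CPM and the 6 choroid plexus markers, of which 3 were called variable, to 71.6, 1766 and 2723 CPM, and both sums were lowest in library 1. All 6 choroid plexus markers were lowest in library 1, but only 4 of the 6 arachnoid barrier markers: Abcg2, at 177, 280 and 340 CPM, made up most of that sum, while Cldn11 (34.8, 25.1 and 32.5 CPM) and Klf5 (3.95, 2.97 and 2.24 CPM) were highest there. All 12 of these markers passed the filter, and their part in the Cdh1 level was not tested. Cdh2, N-cadherin, was at 2.89, 6.87 and 5.72 CPM, and Cdh3, P-cadherin, at 0.76, 2.9 and 4.37 CPM. Both were lowest in library 1 and below 1 CPM per kilobase. Cdh4 had 34, 8 and 46 counts and Cdh15 of muscle had 15, 1 and 0.

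The remaining cadherins were near the limit of detection. Cdh18, at 1.57, 1.08 and 2.09 CPM, Cdh13, the lipid-anchored T-cadherin, and Cdh23, a long cadherin of the inner ear, passed the filter at means of 0.347, 0.208 and 0.123 CPM per kilobase. Cdh24, Cdh12 and Cdh10 had between 4 and 58 counts in each library. Cdh20 and Cdh26 had counts in library 3 only (21 and 12), and Cdh7, Cdh8, Cdh9, Cdh16 and Cdh17 at most 7 counts in any library.

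**Figure D4:**
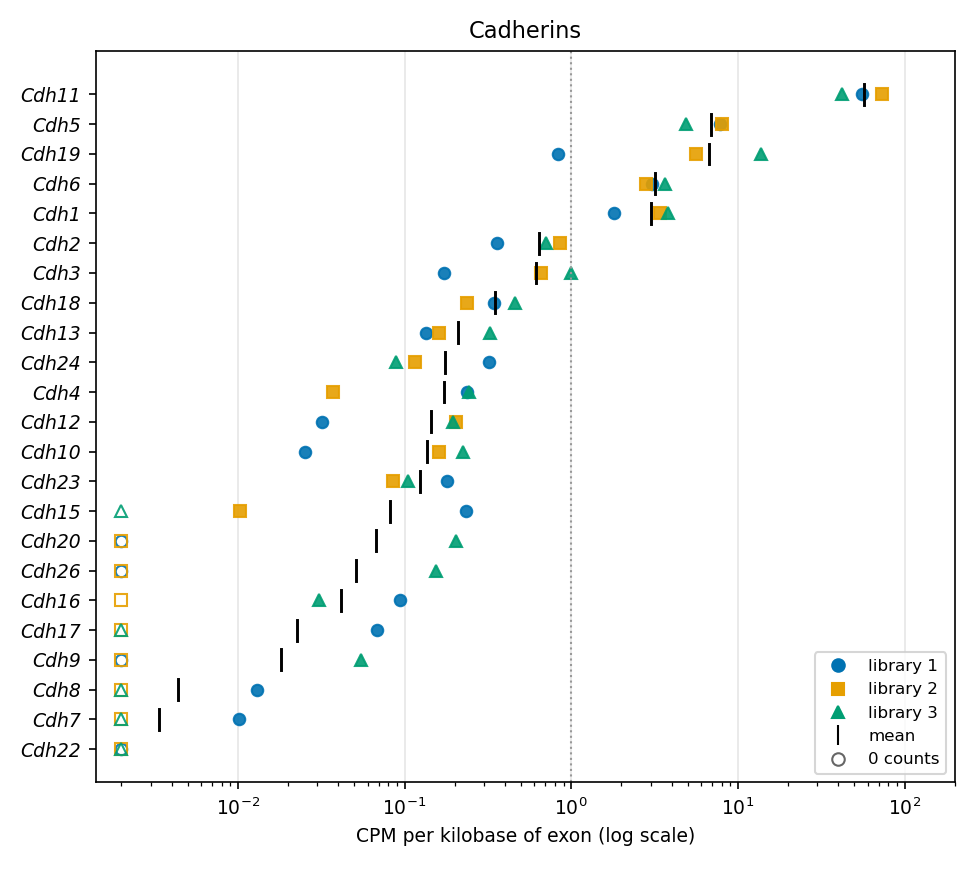
Level of each of the 23 cadherin genes in CPM per kilobase of exon on a log axis, with 1 point per library, a bar at the mean, open points at the left edge for 0 counts and a dotted line at 1. Cdh11 lies at 42.0 to 73.7, and Cdh19 has the widest spread of the 5 genes with a mean above 1.

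Of 9 catenin genes 8 passed the filter and 0 were called. Ctnna1, the alpha-catenin that links cadherins to actin, was at 361, 344 and 399 CPM, and beta-catenin, Ctnnb1, at 194, 217 and 219 CPM. Jup, or plakoglobin, followed at 137, 115 and 133 CPM. Per kilobase of exon these were 57.2, 40.4 and 19.9, beside 57.1 for Cdh11. The Cdh11 value depended on the length used, at 90.0 per kilobase of the longest transcript. Such values were not computed for the catenins. Without division by length Cdh11 averaged 508 CPM and Ctnna1 368 CPM. The neural alpha-catenin Ctnna2 was at 0.661 ± 0.37 CPM and did not pass.

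The test for variation between libraries covered 14409 genes and called 63 of them, or 0.437%, and 1 of the 31 members tested, Cdh19. An unadjusted p under 0.05 was found for 5 members, the other 4 being Itgav, Itgal, Itga8 and Itga6, and for 7.04% of all genes tested. Cdh19 was called without library 2 (edgeR adjusted p = 0.00344; 0.192% of all genes were called there). It was not called without library 1 (adjusted p = 0.295; 0.175%) or without library 3 (adjusted p = 0.524; 0.0816%).

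Library 1 was the lowest for 16 of the 31 members past the filter, against 40.4% of all genes that passed. The log2 difference of library 1 from the average of the others, on CPM + 1, had a median of -0.46 over these members and of -0.02 over all genes past the filter. This difference moved with GC content: across the 31 members the Spearman coefficient was 0.607, and across 14375 genes it was 0.607 too. The points share the same 3 libraries, and genes are not replicates. Of the 14 members under 50% GC library 1 was lowest in 11, and of the 17 others in 5.

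With the GC trend of all genes removed, an alternative chosen after seeing the data, Itgb1 was at 54.5, 74.2 and 78.2 CPM per kilobase and Itgb5 at 37.6, 29.8 and 28.7. The share of Itgb1 then was 56.0%, 67.1% and 65.8%, against 47.5%, 72.04% and 67.9% before, and the log2 ratio of Itgb1 to its alpha partners was -0.24, -0.22 and -0.28. Itga11 became less even, at 37.3, 53.8 and 47.6 CPM per kilobase. Cdh19 was at 1.47, 3.80 and 11.4 CPM per kilobase and was still called (edgeR adjusted p = 0.000837).

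**Figure D5:**
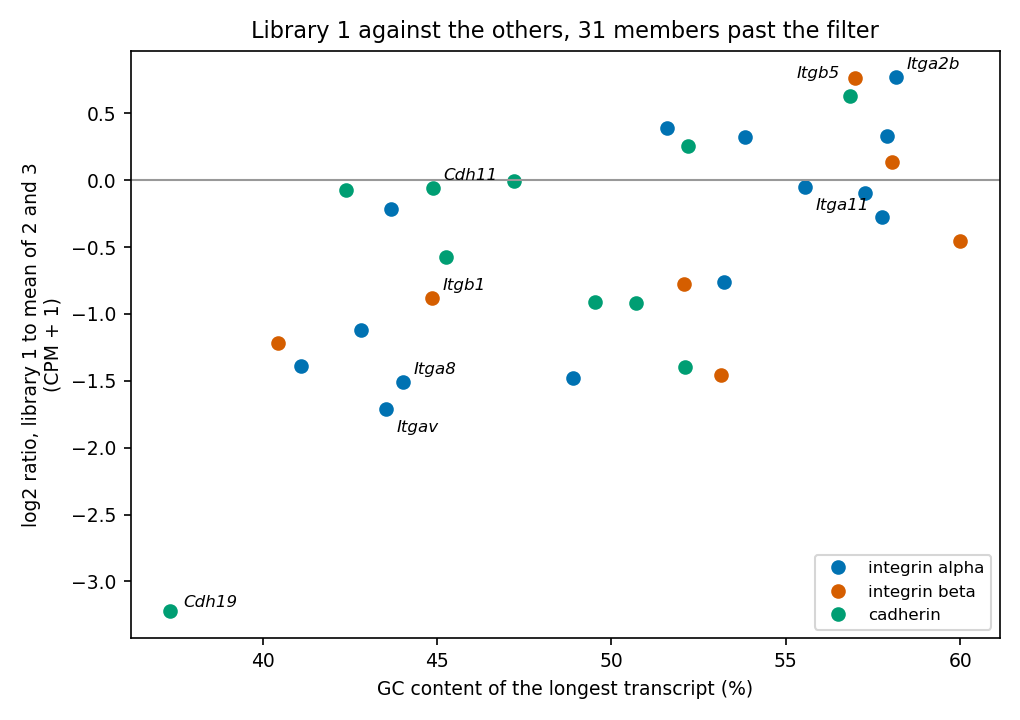
Log2 difference of library 1 from the average of the others (CPM + 1) against the GC content of the longest transcript in percent, for the 31 members past the filter, 1 point per gene. Cdh19 lies lowest, at 37.4% GC and -3.22, and Itgb5 near the top, at 57.0% GC and 0.76.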

How the data were processed

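RNA of 3 libraries of sorted, vehicle-treated mouse leptomeningeal cells was used as deposited: 2 ng of RNA, 12 cycles of cDNA amplification by a template-switching kit and paired reads of 50 bases, per the labels' protocols. The deposited table holds raw counts per gene. The submitters' processing notes name HTSeq 0.5.3, DESeq2 1.22.1 and mm10, with no role; the aligner, annotation release and strand setting are not given in the sources used here. The 5 rows for reads assigned to no gene (45.6%, 39.1% and 39.6% of libraries 1 to 3) were left out.

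Exon length, coding length, position and transcript GC content came from GENCODE M21 (GRCm38), matched on the gene identifier for 46488 of 46983 genes and all 50 members. Low genes were removed by filterByExpr (minimum count 10), sizes scaled by TMM, and edgeR 4.0.16 under R 4.3.3 tested all filtered genes for variation between libraries by goodness of fit at the trended dispersion, with Benjamini-Hochberg adjustment at 0.05; 1 group gives the quasi-likelihood test no contrast. The script was tested on simulated data. Recovery of changed genes was required there only at a dispersion well below that of these data, so its power here is not shown. Reads of overlapping or antisense genes could be lost or shared in counting. Amplified reads are not independent molecules.

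Neighbouring genes were taken as ordered when 3 of 3 libraries gave that order and their means with 1 SD did not overlap. Values per library are given for the 8 leading alpha, 5 leading beta and 8 leading cadherin genes, members called variable, leukocyte chains, Cdh1, Cdh2 and Cdh5. The rule for lists, the 3 leading genes and every gene called, was followed for the leading genes of the pathway lists, mostly given by their means. Marker lists are given by sums, and single markers were named after their values were seen. The members, lists and tests were chosen with earlier results of these data known. Alternatives used size factors of DESeq2 1.42.0, plain totals, other filters, dispersions and lengths, and leaving out each library. Some marker genes are not reported here.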

Additional observations from a re-analysis of the deposited data

How the results depend on the processing

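Of 44 alternatives for 9 comparisons that kept all libraries, 39 left the value within the spread between libraries, within 1.5 times for counts, or in the same direction for log2 ratios, and 0 reversed a direction. The share of Itga11 in the alpha level (54.2%) was 45.2% with the longest transcript as length, 42.4% with coding length and 44.3% without division by length; the cause was not tested. The number of pairs with both chains expressed (12) was 19 without division by length, where the same threshold is easier to pass, and 4 at 5 CPM per kilobase; it was 10 to 12 when each library was left out. The number of variable members (1) was 0 without library 1 or library 3 and 1 without library 2, fits with fewer samples. Other scalings, 56 alternatives for 28 named members, moved each mean level by less than 1 SD. Leaving out a library cannot move a mean of 3 by 1 SD, so its effect is given as a range or a fold: the share was 52.3% to 57.9% for Itga11, 57.7% to 70.0% for Itgb1 and 67.6% to 77.3% for Cdh11. Of the named members past the filter, 3 moved by over 1.5 times: Itgal went from 1.28 to 0.607 CPM without library 2, and without library 3 Cdh19 went from 28.8 to 13.8 CPM and Itgb2 from 4.35 to 2.67 CPM. The log2 ratio of Itgb1 to its alpha partners was -0.42 to -0.04 when each library was left out. It was -0.46 with the longest transcript as length, -0.38 with coding length and -0.89 without division by length. The last lies more than 1 SD (0.39) below the main value of -0.26 and keeps only its direction. No paired analysis was possible because there was only 1 group. Depth limits genes under about 10 counts, such as Itgad, Cdh7, Cdh8 and Cdh9.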

Other observations

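Genes named like the members but outside the symbol rule were read after the main values had been seen. Itgbl1, a secreted integrin beta-like protein that lacks the membrane part of an integrin, was at 128, 247 and 214 CPM in libraries 1, 2 and 3, below Itga11 (229, 246 and 228 CPM) in library 1 and nearer to it in the others. Per kilobase Itgbl1 was at 30.2, 58.3 and 50.6 CPM against 44.6, 47.9 and 44.5 for Itga11. By this measure Itgbl1 was the lower in library 1 and the higher in libraries 2 and 3. Cdhr1, a protocadherin-related protein known from photoreceptors, was at 37.1, 58.8 and 64.7 CPM, above every cadherin member except Cdh11 on average. Cdhr5 had 0 counts, and Cdhr2, Cdhr3, Cdhr4 and Itgb2l had at most 15 counts in any library.

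Some members lie next to each other in the genome. Itga2 and Itga1 on chromosome 13 are 21 kb apart, at 0.699 and 2.09 CPM per kilobase. Cdh3 and Cdh1 on chromosome 8 are 46.1 kb apart, at 0.61 and 3.01 CPM per kilobase. Cdh11, the leading cadherin, and Cdh5 lie 1316 kb apart on chromosome 8, whereas Cdh8, on the other side of Cdh11 at 3216 kb, had 2, 0 and 0 counts. Cdh10 and Cdh12, 1435 kb apart on chromosome 15, were at 0.136 and 0.144 CPM per kilobase. Itgam, Itgax and Itgad lie beside each other on chromosome 7, and all had 0 counts in library 1.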
